A study of Homo sapiens with 6 samples.

Results

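Polycomb group proteins keep genes silent through 2 kinds of chromatin complex. Polycomb repressive complex 2 (PRC2) methylates histone H3 at lysine K27, and Polycomb repressive complex 1 (PRC1) binds that mark and attaches ubiquitin to histone H2A. In PRC2 the catalytic subunit is EZH2 or its paralogue EZH1, held by SUZ12 and EED, and EZH2 is known as the form of dividing cells. In PRC1 the ubiquitin ligase is RNF2 or RING1, paired with a PCGF protein such as BMI1, and CBX proteins such as CBX2 read the methyl mark.

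The RNA of 9 genes for these subunits (EZH1, EZH2, SUZ12, EED, JARID2, CBX2, BMI1, RING1 and RNF2) was followed in 6 samples of hTERT-RPE1-TOShOFD1 cells. The genes were taken by name from the 60666 genes of the deposited table that lie outside alternative contigs, and each name gave 1 gene. hTERT-RPE1 is a human retinal pigment epithelial cell line immortalized with telomerase, and this derivative carries a lentiviral Tet-On hairpin (shRNA) directed at OFD1, a centriolar satellite protein. The 3 control samples were left without doxycycline, and the 3 OFD1-depleted samples, which the labels call OFD1 knockdown, had 200 ng/mL doxycycline for 72 h. All 6 samples carry the shRNA cassette, and no sample had doxycycline without it, so the drug and the depletion cannot be told apart. The study describes its replicates as biological, and nothing used here says whether the line is 1 clone. Levels are FPKM, fragment numbers scaled to transcript length and to the depth of the sample, so that genes could be compared with each other per length.

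The library checks were as follows. OFD1 was 3.34, 3.62 and 3.44 FPKM in control and 0.795, 0.763 and 1.43 FPKM in the OFD1-depleted samples, or 28.7% of control (limma adjusted p = 0.00085). Depth, read from the step size of low values, was about 37800000 to 44500000 fragments, with 22.7% to 25.1% of those values on whole steps (within 0.05 of a step, where chance gives 10.0%). Mitochondrially encoded genes took 8.66% to 13.8% of summed FPKM in control and 15.6% to 19.3% in OFD1-depleted samples. The labels name retina as the tissue, but of 6 retinal pigment epithelium markers MITF alone reached a mean of 1 FPKM over the 6 samples, and BEST1 was above 0.05 FPKM in OFD1-depleted replicate 2 only (4.33 FPKM). The 6 markers summed to 5.67 to 6.20 FPKM in control and 7.71 to 10.7 FPKM in the OFD1-depleted samples. The keratins KRT8 and KRT18, which mark simple epithelium, summed to 254 to 272 FPKM in control and 294 to 407 FPKM in the OFD1-depleted samples. Of photoreceptor genes, CRX was at 0 in all 6 samples and NRL was at most 0.286 FPKM. PTPRC and PECAM1, of leukocytes and endothelium, together summed to at most 0.315 FPKM in any sample.

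OFD1-depleted cells had less EZH2 RNA and more JARID2 RNA, while the other members did not pass the test in either direction. EZH2 fell to 42.3% of its control level, and JARID2, which helps to bring PRC2 to chromatin, rose to 153%. The EZH2 call held in each of 17 other settings of the test, but the JARID2 call held in only 9 of them. The test was limma on log2(FPKM + 0.1), adjusted over the 12025 genes that averaged 1 FPKM or more over the 6 samples. Of the 9 members 8 entered it, 1 was lower and 1 was higher at an adjusted p under 0.05, and CBX2 lay below the filter. Over all genes tested, 11.9% were lower and 5.07% were higher. The groups did not overlap for the same 1 lower and 1 higher member, against 22.3% and 13.8% of all genes tested. The median log2 fold change was 0.08 over the 8 members and -0.03 over all genes tested.

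EZH2 is the methyltransferase of PRC2 (ENSG00000106462, GRCh38 chromosome 7 from 148807383 to 148884321, minus strand). It had 12.1, 13.6 and 12.3 FPKM in control replicates 1, 2 and 3, and 5.68, 5.11 and 5.26 FPKM in OFD1-depleted replicates 1, 2 and 3. Every control sample lay above every OFD1-depleted sample, and the mean was 12.7 ± 0.784 FPKM (SD, n = 3) against 5.35 ± 0.293 FPKM (SD, n = 3). The log2 fold change was -1.23 (standard error 0.13, 95% interval -1.52 to -0.94, limma adjusted p = 0.00012). By exact permutation, two-sided, p was 0.1, the smallest that 3 samples against 3 can give. Of all 12025 genes tested, 322 (2.68%) had a log2 fold change as low or lower. EZH2 passed the threshold in each of 17 other settings, with log2 fold changes of -1.37 to -1.10 and adjusted p of 6.78e-06 to 0.00319. In bulk RNA, fewer cells that make EZH2 and less EZH2 RNA per cell cannot be told apart.

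EZH1 is the second methyltransferase of PRC2 and the weaker enzyme (ENSG00000108799, chromosome 17 from 42700275 to 42745049, minus strand). It had 3.61, 3.97 and 3.74 FPKM in control and 5.29, 3.71 and 4.08 FPKM in the OFD1-depleted samples. The highest value was that of OFD1-depleted replicate 1, and OFD1-depleted replicate 2 lay within the control range. The log2 fold change was 0.19 (95% interval -0.19 to 0.57, limma adjusted p = 0.511), so a rise of up to 0.57 was within the interval.

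The pair was therefore set side by side within each sample, which removes any scale factor that the genes of a sample share. On the log2 scale the EZH2 to EZH1 ratio was 1.72, 1.74 and 1.69 in control samples. In OFD1-depleted samples it was 0.10, 0.45 and 0.36, below every control sample. The ratio changed by -1.41, at the smallest p that exact permutation allows (two-sided, p = 0.1, n = 3 per group, Benjamini-Hochberg adjusted p = 0.5 over 5 ratios). EZH2 made up 77.0%, 77.3% and 76.7% of the summed FPKM of both genes in control samples. It made up 51.8%, 58.0% and 56.3% in OFD1-depleted samples, still the larger share in each. Added up, both genes gave 16.4 ± 0.964 FPKM in control against 9.71 ± 1.12 FPKM after depletion (SD, n = 3 each), which is 59.1%.

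**Figure D1:**
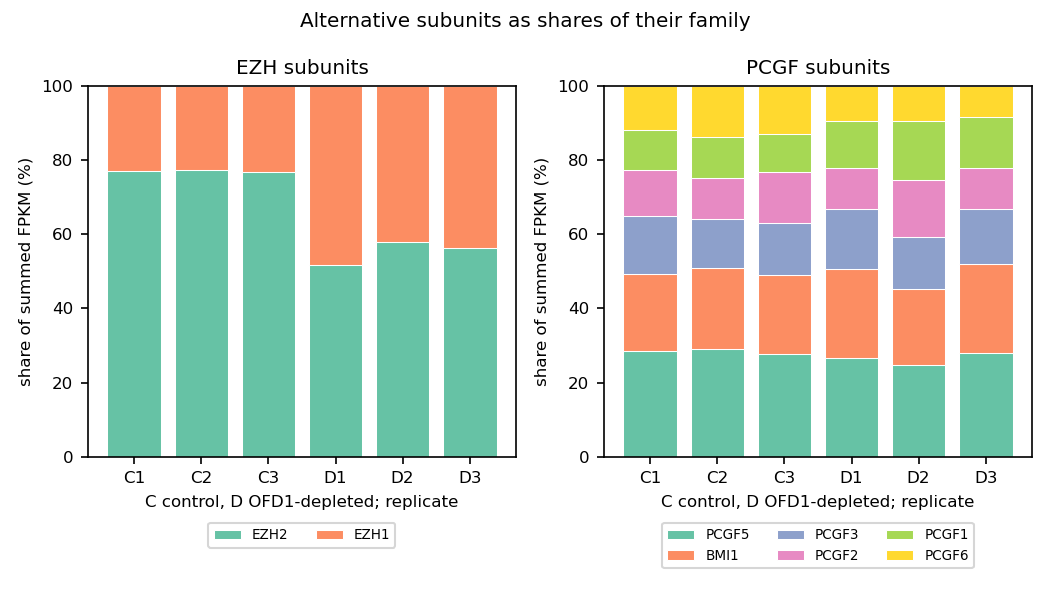
Share of each subunit in the summed FPKM (%) of its family, for the EZH pair and 6 PCGF genes, in control (C1 to C3) and OFD1-depleted (D1 to D3) samples. EZH2 took 76.7% to 77.3% of the EZH sum in control and 51.8% to 58.0% in OFD1-depleted samples. PCGF6 took a smaller share of the PCGF sum, and PCGF1 a larger share, in every OFD1-depleted sample than in any control sample. The shares of PCGF2, PCGF3, BMI1 and PCGF5 overlapped between groups. As a gene, PCGF6 did not pass the test (limma adjusted p = 0.192).

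RefSeq promoter windows on GRCh38.p14 were available for 8 of the 9 members, in 11 windows that run from 250 bases before to 50 bases after a start site. They were searched on both strands for words of cell-cycle promoters: the E2F words TTTCCCGC, TTTCGCGC, TTTGCCGC and TTTGGCGC, the CHR word TTTGAA and the CCAAT box. The windows of the EZH pair and of JARID2 are shown from 150 bases before the start site to 20 bases after it, because their genes differ in the expression result. Capitals mark matches in either strand, and none of the matches overlapped. EZH2 lies at chr7:148884272-148884441 (minus strand), EZH1 at chr17:42745021-42745190 (minus strand) and JARID2 at chr6:15245919-15246088 (plus strand).
EZH2: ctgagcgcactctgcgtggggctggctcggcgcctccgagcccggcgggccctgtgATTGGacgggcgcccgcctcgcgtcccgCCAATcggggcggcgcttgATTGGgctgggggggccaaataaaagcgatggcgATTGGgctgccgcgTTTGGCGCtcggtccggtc
EZH1: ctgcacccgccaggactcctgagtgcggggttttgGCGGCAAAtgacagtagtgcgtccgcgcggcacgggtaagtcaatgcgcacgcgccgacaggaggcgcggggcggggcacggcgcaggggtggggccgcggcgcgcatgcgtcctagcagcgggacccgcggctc
JARID2: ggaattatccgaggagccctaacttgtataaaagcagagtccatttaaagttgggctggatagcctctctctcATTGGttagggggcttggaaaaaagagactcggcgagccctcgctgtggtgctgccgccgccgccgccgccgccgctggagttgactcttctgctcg
The EZH2 window held 4 CCAAT boxes, which begin at -94, -66, -47 and -13, and the E2F word TTTGGCGC at 2 to 9, counted from the start site. A further EZH2 window, at a start site at 148883485, held no match. The EZH1 window held 1 E2F word, TTTGCCGC on the opposite strand at -115 to -108, and no CCAAT box. In JARID2 there was 1 CCAAT box, at -77, and its second window held no match. SUZ12 held the E2F word TTTCCCGC at -189, CHR at -173 and CCAAT at -31, and EED held CCAAT at -16. RNF2, RING1 and BMI1 held none of these words. Of 35116 windows of the same length, 3.31% held an E2F word, 15.2% held CHR, 34.6% held CCAAT and 0.991% held 4 or more CCAAT boxes. An E2F word together with 4 or more CCAAT boxes was found in 26 windows (0.0740%). The cut of 4 equals the number in the EZH2 window, which is itself among the 26. These shares therefore describe that window and are no test of it. A match is a stretch of letters, not a measured binding site.

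EZH2 was next set beside genes of DNA replication and proliferation. The MCM2 to MCM7 genes encode the replicative helicase, PCNA encodes the sliding clamp of DNA polymerase, and MKI67 encodes the proliferation antigen Ki-67. All 8 were lower in OFD1-depleted samples, at 26.3% to 53.1% of control, with log2 fold changes of -1.93 to -0.91 and a median of -1.22. Over all genes tested, 11.9% were lower. These 8 genes were chosen with earlier results of these data known, so their count describes them and is no test. The log2 fold change of -1.23 for EZH2 lies within that range. MKI67 was the lowest (log2 fold change -1.93, limma adjusted p = 5.18e-05), and MCM2 followed (-1.497, limma adjusted p = 3.22e-05). MCM3 had -1.25 (limma adjusted p = 7.75e-05). All 8 were lower in each of the 17 other settings as well. They shared with EZH2 the difference between the groups, whereas within a group the order of the replicates was not the same for all of them. Their part in the EZH2 difference was not tested.

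**Figure D2:**
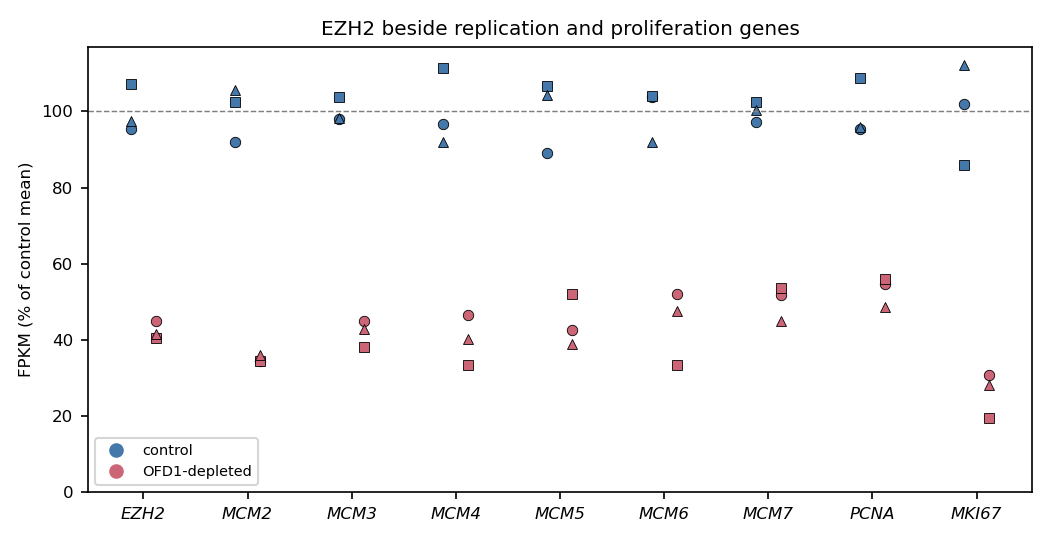
FPKM of EZH2, 6 MCM genes, PCNA and MKI67 as % of each gene's control mean (dashed line, 100), by sample, with circles, squares and triangles for replicates 1, 2 and 3. EZH2 lay at 40.4% to 44.9% in the OFD1-depleted samples (red), between MKI67 at 19.6% to 30.9% and PCNA at 48.8% to 56.0%.

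By Pearson correlation of log2(FPKM + 0.1) over the 6 samples, 122 of the 12024 other genes tested had r of at least 0.99 with EZH2. The 5 nearest all had r = 0.999. They were KIF2C, a kinesin that depolymerizes microtubules, BUB1, a kinase of the spindle checkpoint, TLCD4, HJURP, the chaperone of the centromeric histone CENP-A, and CDC6, which loads the MCM helicase. Their log2 fold changes were -1.38 for KIF2C, -1.54 for BUB1, -1.56 for TLCD4, -1.94 for HJURP and -1.46 for CDC6. The points share their library and the split between the 2 groups, so any gene with a steady difference between groups scores high.

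SUZ12 is the scaffold on which PRC2 assembles (ENSG00000178691, chromosome 17 from 31937007 to 32001038, plus strand). It had 8.93, 10.4 and 8.02 FPKM in control and 9.18, 6.17 and 9.35 FPKM in the OFD1-depleted samples. OFD1-depleted replicate 2 was the lowest of the 6 samples, and the other 2 OFD1-depleted samples lay within the control range. The log2 fold change was -0.16 (95% interval -0.56 to 0.24, limma adjusted p = 0.590), and without OFD1-depleted replicate 2 it was 0.03. The transcribed pseudogene SUZ12P1 had 2.91 to 4.77 FPKM over the 6 samples, a difference of -0.04 on the log2 scale (limma adjusted p = 0.926). How reads common to the copy and to SUZ12 were divided is not known, so the level of SUZ12 is uncertain to that extent.

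EED reads the trimethyl mark and stimulates the enzyme (ENSG00000074266, chromosome 11 from 86244753 to 86278813, plus strand). It had 5.33, 7.18 and 5.58 FPKM in control and 4.04, 4.39 and 5.96 FPKM in the OFD1-depleted samples. Replicates 1 and 2 of the OFD1-depleted group were below every control sample, and replicate 3 was not. This gave a log2 fold change of -0.33 (95% interval -0.74 to 0.08, limma adjusted p = 0.257). The histone chaperones RBBP4 and RBBP7 complete the PRC2 core and also serve in other complexes. RBBP4 was 19.5 ± 1.15 and 19.4 ± 2.02 FPKM (SD, n = 3; log2 fold change -0.01, limma adjusted p = 0.985). RBBP7 had 63.6, 73.7 and 65.1 FPKM in control and 56.2, 59.1 and 56.9 FPKM after depletion (-0.23, limma adjusted p = 0.225). It passed in 1 of 17 other settings, with each sample scaled to the same total (-0.38, limma adjusted p = 0.0455). In that setting the median of all genes tested also moved down, to -0.18. The RBBP7 to RBBP4 ratio changed by -0.23 on the log2 scale, with overlap between groups (exact permutation, two-sided, p = 0.2, n = 3 per group, adjusted p = 0.5). Of the 6 core genes, 1 passed the test, as lower, where 11.9% of all genes tested were lower.

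JARID2 joins PRC2 as an accessory subunit and guides it to its targets (ENSG00000008083, chromosome 6 from 15246069 to 15522042, plus strand). It had 6.62, 6.18 and 6.38 FPKM in control replicates 1, 2 and 3, and 11.5, 8.37 and 9.51 FPKM in OFD1-depleted replicates 1, 2 and 3. Every OFD1-depleted sample lay above every control sample, and the OFD1-depleted values were the more spread. The mean was 6.40 ± 0.223 FPKM (SD, n = 3) against 9.79 ± 1.58 FPKM (SD, n = 3), a log2 fold change of 0.60 (standard error 0.15, 95% interval 0.27 to 0.92, limma adjusted p = 0.0194). As high or higher log2 fold changes were found in 531 genes (4.42%). The call held in 9 of 17 other settings, where adjusted p ran from 0.00129 to 0.0990. It was lost when any 1 sample other than OFD1-depleted replicate 2 was left out, with adjusted p of 0.0611, 0.0662 and 0.0771 without control replicates 1, 2 and 3, and of 0.0665 and 0.0515 without OFD1-depleted replicates 1 and 3. It was also lost when mitochondrial genes were taken out of the total (log2 fold change 0.54, limma adjusted p = 0.0676) and with no filter on low values (limma adjusted p = 0.0706). With each sample scaled to the same FPKM total, the log2 fold change of JARID2 was 0.45 (limma adjusted p = 0.0990), where the median of all genes tested moved to -0.18.

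The other accessory subunits differ in which form of PRC2 they join. AEBP2, which joins PRC2 together with JARID2, had 3.48, 5.12 and 3.91 FPKM in control and 5.07, 5.11 and 5.25 FPKM in the OFD1-depleted samples (log2 fold change 0.31, limma adjusted p = 0.243). EPOP, which links PRC2 to elongin, fell from 2.67 ± 0.270 to 1.29 ± 0.393 FPKM (SD, n = 3; log2 fold change -1.02, limma adjusted p = 0.0174). Its call was lost without control replicate 1 (adjusted p = 0.0774), control replicate 2 (0.0572) or OFD1-depleted replicate 3 (0.0582), and with no filter (0.0967). Of 8 accessory genes 7 were tested, 1 was lower and 1 higher, and the median log2 fold change was -0.29. Beside these counts stand 11.9% lower and 5.07% higher of all genes tested. EZHIP, an inhibitor of PRC2, was listed at 0 in all 6 samples. JARID2 and AEBP2, a pair added up after their values were seen, made 15.7% ± 0.340 of the accessory FPKM in control and 25.3% ± 3.29 in OFD1-depleted samples (SD, n = 3). The accessory sum itself went from 67.2 ± 4.83 to 59.3 ± 3.96 FPKM (SD, n = 3). With the pair picked by its values, this share is no test of a change between forms of PRC2.

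RING1 and RNF2 are the alternative ubiquitin ligases of PRC1. RING1 (ENSG00000204227, chromosome 6 from 33208500 to 33212722, plus strand) had 19.4, 21.4 and 20.4 FPKM in control and 18.3, 23.4 and 18.7 FPKM in the OFD1-depleted samples. Its OFD1-depleted values lay on both sides of the control range, and the log2 fold change was -0.03 (95% interval -0.33 to 0.28, limma adjusted p = 0.925). RNF2 (ENSG00000121481, chromosome 1 from 185045526 to 185102603, plus strand) had 6.44, 7.06 and 4.45 FPKM in control and 8.79, 6.64 and 8.15 FPKM in the OFD1-depleted samples. OFD1-depleted replicates 1 and 3 were above every control sample and replicate 2 was not. Its log2 fold change was 0.41 (95% interval -0.01 to 0.82, limma adjusted p = 0.176). The RNF2 to RING1 ratio changed by 0.43 on the log2 scale, with overlap between groups (exact permutation, two-sided, p = 0.3, n = 3 per group, adjusted p = 0.5).

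BMI1, also called PCGF4, pairs with the ligase in the canonical form of PRC1 (ENSG00000168283, chromosome 10 from 22321099 to 22331484, plus strand). It had 14.7, 18.2 and 14.95 FPKM in control and 21.2, 17.1 and 20.4 FPKM in the OFD1-depleted samples. OFD1-depleted replicate 2 lay inside the control range, and the other 2 were above it. The log2 fold change was 0.29 (95% interval -0.02 to 0.61, limma adjusted p = 0.194). With array weights, which count less reliable samples for less, BMI1 (log2 fold change 0.43, limma adjusted p = 0.00904) and RNF2 (0.47, limma adjusted p = 0.0425) passed the threshold, and they passed it in no other setting. AEBP2 (0.45, limma adjusted p = 0.0297) and PCGF3 (0.30, limma adjusted p = 0.0482) likewise passed with these weights only. The readthrough gene COMMD3-BMI1 was at 0 in 5 samples and 0.139 FPKM in OFD1-depleted replicate 3.

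Of the other PCGF genes, PCGF2 shares canonical PRC1 with BMI1, and the rest define its variant forms. PCGF1 rose from 7.58, 9.38 and 7.09 FPKM in control to 11.2, 13.2 and 11.6 FPKM in the OFD1-depleted samples, without overlap (log2 fold change 0.59, limma adjusted p = 0.0201). Its call was lost without control replicate 1 (adjusted p = 0.0890) or control replicate 3 (0.110), with no filter (0.0759) and with equal FPKM totals (log2 fold change 0.44, limma adjusted p = 0.0674). PCGF2, the nearest paralogue of BMI1, had log2 fold change 0.19 (adjusted p = 0.456), and PCGF3 had 0.26 (adjusted p = 0.222). PCGF5 had 0.09 (limma adjusted p = 0.711), and PCGF6 had -0.31 (limma adjusted p = 0.192). PCGF1 made up 10.6% ± 0.607 of the summed PCGF level in control and 14.1% ± 1.66 in OFD1-depleted samples (SD, n = 3). For PCGF6 the shares were 12.9% ± 0.870 and 9.10% ± 0.526. The BMI1 to PCGF2 ratio changed by 0.11 on the log2 scale, with overlap (exact permutation, two-sided, p = 0.8, n = 3 per group).

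CBX2 carries a chromodomain for the methyl mark and compacts chromatin (ENSG00000173894, chromosome 17 from 79778148 to 79787983, plus strand). It was the lowest of the 9 members, at 0.837, 0.196 and 0.463 FPKM in control and 0.201, 0.302 and 0.227 FPKM in the OFD1-depleted samples. The control samples alone spanned more than the difference between the group means, and the groups overlapped. Tested without the filter, its log2 fold change was -0.66 (95% interval -1.83 to 0.51, limma adjusted p = 0.614).

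The alternative subunit CBX7 had a difference of -0.32 on the log2 scale (limma adjusted p = 0.432). SCML1, of the sex comb on midleg family, was 4.57 ± 0.978 and 2.41 ± 0.467 FPKM (SD, n = 3; log2 fold change -0.88, limma adjusted p = 0.0157). Without control replicate 1 or 3 its adjusted p was 0.0731 and 0.0833, and with no filter 0.0971. Of the 10 CBX, PHC and SCM genes reported here, 8 were tested, 1 was lower and none was higher, with a median of -0.28. Among all genes tested, 11.9% were lower and 5.07% higher. The ratio of CBX2 to CBX7 changed by -0.34 on the log2 scale, with overlap between groups (exact permutation, two-sided, p = 0.8, n = 3 per group).

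**Figure D3:**
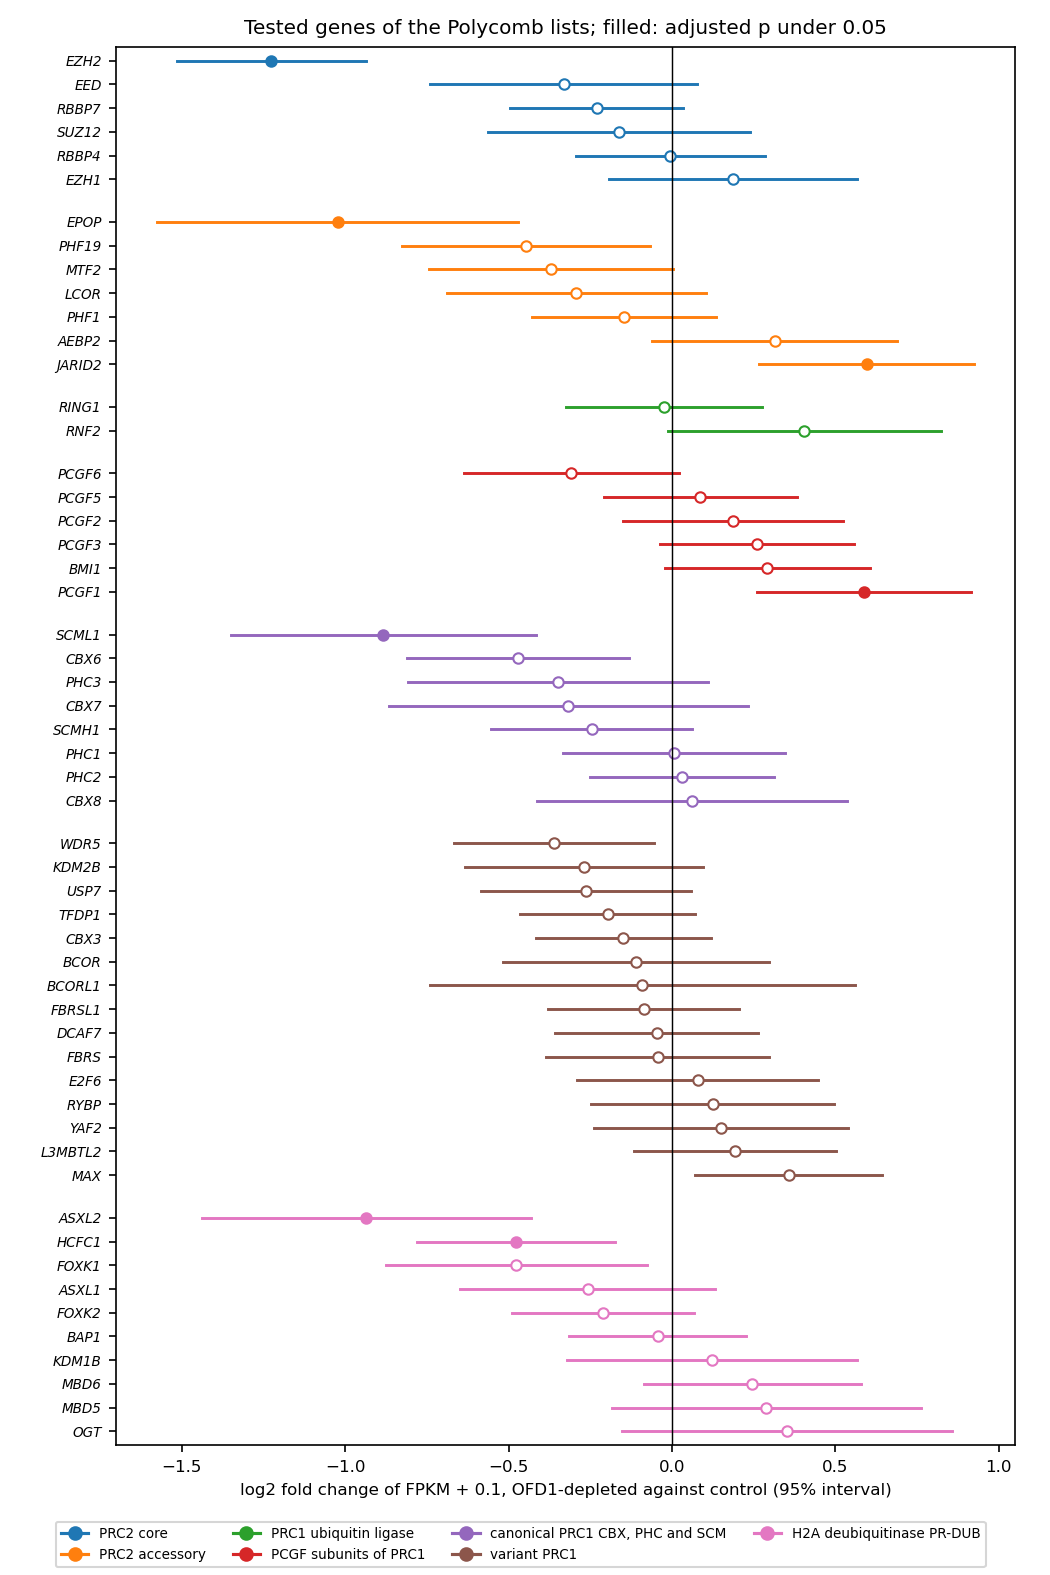
Log2 fold change (OFD1-depleted against control, log2(FPKM + 0.1) scale) with 95% interval for the 54 tested genes of the Polycomb lists, coloured by complex, with filled points at a limma adjusted p under 0.05. The 5 filled points left of 0 are EZH2, EPOP, SCML1, ASXL2 and HCFC1, and the 2 on the right are JARID2 and PCGF1.

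Over the Polycomb lists, 54 of 60 genes were tested, 5 were lower and 2 were higher, and the median log2 fold change was -0.09. As shares of the tested genes these counts can be read against the 11.9% lower and 5.07% higher of all genes. In 14 of the 54 every OFD1-depleted sample was below every control sample, and in 5 every one was above, beside 22.3% and 13.8% of all genes tested. In the variant PRC1 list 15 genes were tested and none passed. In the list of PR-DUB, the complex that removes ubiquitin from H2A, 10 were tested and 2 were lower. ASXL2, a cofactor of the deubiquitinase BAP1, had 3.15, 2.69 and 3.11 FPKM in control and 1.86, 1.10 and 1.66 FPKM in the OFD1-depleted samples (log2 fold change -0.94, limma adjusted p = 0.0173). Without control replicate 1 or 3 its adjusted p was 0.0716 and 0.0744, and with no filter 0.0887. HCFC1, which binds BAP1, had log2 fold change -0.48 (limma adjusted p = 0.0355) and passed in 9 of 17 other settings. BAP1 itself was 24.3 ± 0.838 and 23.6 ± 1.87 FPKM (SD, n = 3; adjusted p = 0.846).

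The order of the members by level also differed between the groups. In control samples it ran from RING1 through BMI1, EZH2, SUZ12, JARID2, EED, RNF2 and EZH1 to CBX2. Among neighbours in that order, JARID2 and EED overlapped in range, as did EED and RNF2. In OFD1-depleted samples the order was RING1, BMI1, JARID2, SUZ12, RNF2, EZH2, EED, EZH1 and CBX2. There RING1 overlapped with BMI1, JARID2 with SUZ12, SUZ12 with RNF2, EZH2 with EED and EED with EZH1. EZH2 moved from rank 3 to rank 6, and JARID2 from rank 5 to rank 3.

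Enzymes that act on the same or the opposing mark were looked at next. KDM6A and KDM6B, which take methyl groups off H3K27, had log2 fold changes of -0.04 (limma adjusted p = 0.925) and of 0.47 (limma adjusted p = 0.184). KDM6B had 2.34, 1.76 and 2.35 FPKM in control and 3.77, 2.31 and 3.05 FPKM in the OFD1-depleted samples, with overlap. KDM6B passed the threshold without OFD1-depleted replicate 2 (log2 fold change 0.64, limma adjusted p = 0.0446) and with array weights (0.51, limma adjusted p = 0.0399). Of 10 genes of the H3K4 methyltransferase complexes, which oppose Polycomb, 1 was lower and none was higher, with a median of -0.13. Over all genes tested the shares were 11.9% lower and 5.07% higher, so this count does not set these complexes apart. KMT2A, the 1 lower gene, had 3.67, 3.13 and 3.14 FPKM in control and 2.54, 1.27 and 1.96 FPKM in the OFD1-depleted samples (log2 fold change -0.80, limma adjusted p = 0.0447). It passed in 7 of 16 other settings, and leaving out any 1 sample other than OFD1-depleted replicate 1 gave adjusted p of 0.0558 to 0.152.

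HOX genes and the INK4 genes are textbook targets of Polycomb silencing. Of 39 HOX genes 29 were listed at 0 in all 6 samples, and the highest single value among the other 10 was 0.350 FPKM, for HOXB3. No HOX gene passed the filter. CDKN2A, which encodes p16 and ARF, was expressed in both groups, at 221, 258 and 230 FPKM in control. In OFD1-depleted samples it had 247, 358 and 213 FPKM (log2 fold change 0.17, limma adjusted p = 0.570). Its neighbour CDKN2B had 5.38, 6.09 and 5.19 FPKM in control and 6.74, 6.10 and 6.80 FPKM in OFD1-depleted samples. The CDKN2B groups narrowly did not overlap, but the gene did not pass (0.24, limma adjusted p = 0.291). At this level the HOX genes allow no comparison of the groups.

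Single samples carried part of the spread among Polycomb genes. OFD1-depleted replicate 2 was the lowest of its group in 31 of the 54 tested genes and replicate 1 was the highest in 36. The same count was not made over all genes tested, so the pattern cannot be called particular to Polycomb genes. Apart from SUZ12P1, genes that overlap a member or copy it were low: EZH2P1 reached 0.573 FPKM, JARID2-AS1 0.324 FPKM and RNA5SP437 0.363 FPKM, and each of the rest stayed at or below 0.170 FPKM.

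**Figure D4:**
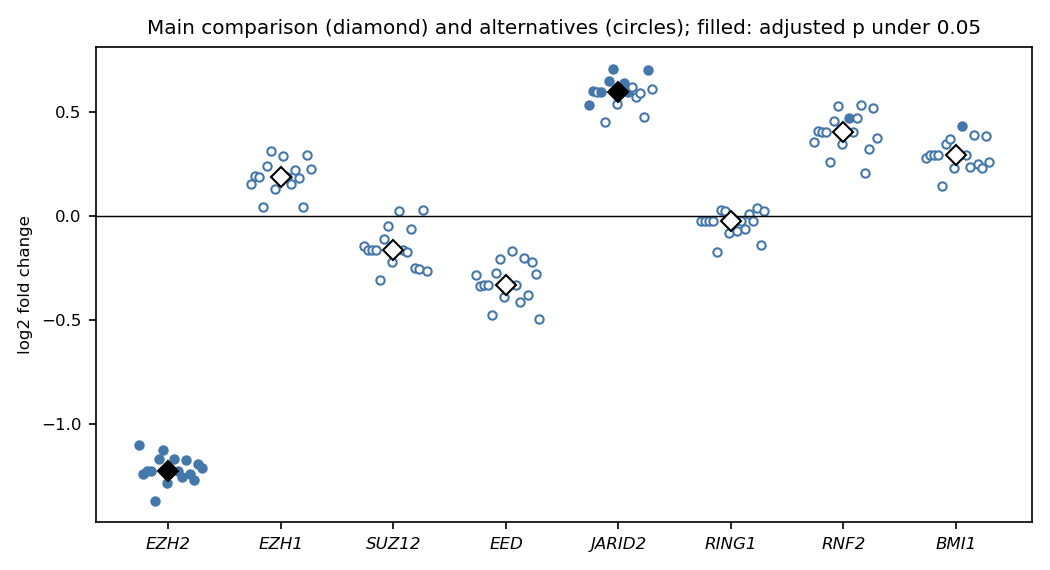
Log2 fold change of 8 members in the main comparison (diamonds) and under the alternative settings (circles, spread sideways for legibility), filled where limma adjusted p was under 0.05. EZH2 was filled throughout (-1.37 to -1.10), JARID2 was filled in 9 of 17 alternatives (0.45 to 0.71), BMI1 and RNF2 in 1 each, and SUZ12 and RING1 lay on both sides of 0.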

How the data were processed

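RNA was measured in 6 samples, grouped by their labels. By the study's methods, directional libraries were sequenced as read pairs, aligned with HISAT2 (version 2.0.5 in the submitters' processing notes) to GRCh38 and summarized by StringTie. The authors deposited FPKM per gene without read counts, and therefore no count model was fitted. FPKM is already divided by depth, and depth was estimated only roughly from the steps of low values of single-exon genes. Summed FPKM ran from 408302 to 414547 in control and from 433262 to 493510 in OFD1-depleted samples. The main comparison did not rescale the samples to equal totals. The extraction label also speaks of retinas, whereas the other labels name a cell line. No 2 samples held identical values. P-values measure the spread between these samples.

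The comparison was limma 3.58.1 (R 4.3.3) with a variance trend on log2(FPKM + 0.1), restricted to genes averaging 1 FPKM or more, two-sided, with Benjamini-Hochberg adjustment over all 12025 genes tested and a threshold of 0.05. Fold changes are on that scale, which understates changes of low genes. Ratios were compared by exact permutation in Python 3.11.15 with scipy 1.17.1. Members and gene lists were chosen with earlier results of these data known. Genes named were all members, OFD1, MKI67, all genes of lists of up to 6 genes and of the ratios, up to 3 called genes per list by adjusted p, the 5 genes nearest to EZH2, and overlapping genes or copies. AEBP2, EZHIP, BAP1 and HOXB3 were named after their values were seen. Some list genes, and 1 ratio, are not reported here, and list counts leave them out. Overlapping genes and pseudogene copies are uncertain, since the sharing of reads between them is not known.

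Alternatives were pseudocounts of 1 and 0.01, no filter, a filter at 5 FPKM, equal totals (TPM), median-of-ratios and quantile scaling, no variance trend, array weights, a replicate block and each sample left out. Scaling to a total without mitochondrial genes was chosen after seeing the data.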

Additional observations from a re-analysis of the deposited data

How the results depend on the processing

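EZH2 was the 1 member lower in all 17 alternatives. The 610 higher genes became 260 with no filter, 268 with TPM scaling, 1093 with quantile normalization and 1693 with array weights, and 244 to 1077 with a sample left out. The 1429 lower genes became 823 with no filter, 964 with the filter at 5 FPKM, 1988 with TPM scaling and 2263 with array weights. They became 867 to 1741 with a sample left out. With the total without mitochondrial genes, 408 genes were higher. The count of higher members was 0 with no filter, with TPM scaling and with the total without mitochondrial genes, 3 with array weights (BMI1, JARID2 and RNF2), and 0 to 1 with a sample left out. Of the Polycomb genes, 1 was lower and 0 higher with no filter, 2 were lower with the filter at 5 FPKM, 9 were lower and 0 higher with TPM scaling, 9 were lower and 7 higher with array weights, and 1 was higher with the total without mitochondrial genes. With a sample left out 1 to 6 were lower and 0 to 3 higher. These Polycomb counts are to be read against the counts of all genes in the same setting, which moved as well. SUZ12 changed sign with array weights (0.022) and without OFD1-depleted replicate 2 (0.029), and ran from -0.27 to 0.029 with a sample left out. RING1 changed sign with median-of-ratios scaling (0.030), quantile normalization (0.026), and without control replicate 2 (0.011) or OFD1-depleted replicates 1 (0.039) or 3 (0.024), and ran from -0.14 to 0.039 with a sample left out. RBBP4 changed sign with median-of-ratios scaling (0.050), quantile normalization (0.066), array weights (0.059) and some samples left out (-0.054 to 0.084). BAP1 did so with median-of-ratios scaling (0.012), quantile normalization (0.0016) and without OFD1-depleted replicate 3 (-0.087 to 0.023 with a sample left out). KDM6A did so with median-of-ratios scaling (0.015), quantile normalization (0.095), array weights (0.11) and without OFD1-depleted replicate 2 (-0.24 to 0.18). PCGF5 did so with TPM scaling (-0.060) and CDKN2A without OFD1-depleted replicate 2 (-0.040 to 0.34). With a sample left out the change of BMI1 to PCGF2 ran from -0.017 to 0.35 (-0.0099 and -0.017 without OFD1-depleted replicates 1 and 3) and that of CBX2 to CBX7 from -0.63 to 0.10 (0.10 without control replicate 1). The cause was not tested. Except with no filter (28501 genes tested) and the filter at 5 FPKM (7883 genes tested), every setting used 12025 genes.

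The replicate numbers are shared by both groups, but deviations of same-numbered samples correlated by 0.058, 0.048 and 0.011 only, so the numbers were not taken to pair samples. With the replicate block, 1534 genes were lower and 762 higher, and EZH2 and JARID2 were still the called members. Of the Polycomb genes 7 were lower and 2 higher, where the main comparison had 5 and 2. Among the genes followed singly across the settings no call changed, so the added calls were of other Polycomb genes. CBX2 and the HOX genes averaged below 1 FPKM and did not enter the main comparison.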
